A study of Mus musculus with 15 samples.

Results

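Carcinomas that arose in the mammary glands of Trim24COE mice were compared with control mammary glands across all genes measured by RNA-seq. The 7 libraries used for this contrast, of 15 in the series, were the first libraries of 3 carcinomas (mice 89, 273_5 and 3956) and 4 control glands (mice 133, 392, 417_3 and 517_3), chosen by genotype and tissue class as labelled. Trim24COE mice carry 1 copy of a transposon in which a floxed stop cassette stands before a FLAG-tagged Trim24 cDNA, and MMTV-Cre removes the stop in mammary epithelium. Control mice carry MMTV-Cre without an active Trim24 transgene, so both groups express Cre, and both are of the FVB strain. The labels give no ages, and the study describes its controls as age-matched. The MMTV promoter is not active in every epithelial cell, and each sample was whole tissue, so the RNA also came from fat, stroma, vessels and immune cells. In such bulk RNA, fewer cells of a type and less RNA per cell cannot be told apart. The carcinoma class follows the labels. The 2 pathologists of the study both called tumor 273_5 a carcinoma, whereas 1 of them called tumors 89 and 3956 carcinosarcomas. The study's pathology list also holds a class call based on RNA-seq, which gives tumors 89 and 273_5 as carcinoma.

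The normal mammary gland is a tree of ducts embedded in fat. Its inner luminal cells include hormone-sensing cells that carry the estrogen and progesterone receptors and send signals to their neighbours, and its outer basal cells are contractile and answer to oxytocin. A carcinoma keeps epithelial features, whereas a metaplastic carcinosarcoma holds epithelial and mesenchymal-like parts. Trim24 is a chromatin reader of the tripartite motif family and a co-regulator of nuclear receptors. Its RNA level did not separate the groups. Trim24 measured 24.1, 13.9 and 16.4 TPM (a level corrected for gene length and scaled to the same total in each library) in carcinomas 89, 273_5 and 3956. In control glands 133, 392, 417_3 and 517_3 it measured 14.5, 18.4, 22.4 and 15.9 TPM. The groups overlapped, and the log2 difference was 0.01 (SE 0.30, limma adjusted p = 0.991). The transgene and the endogenous gene share these reads, so the level sums both, and it did not show the overexpression named by the genotype label. The study reported higher Trim24 transcript in Trim24COE glands than in control glands. For Trim24COE tumors it reported the same by qRT-PCR and described this as predicted by its RNA-seq. It also reported more FLAG and TRIM24 protein in these tumors by immunohistochemistry. The cause of this gap was not tested.

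Control glands 417_3 and 517_3 were nearly the same in their values, and every count below depends on how they are treated. Plasma cells and lymphocytes give each mouse its own mixture of antigen receptor V segments. Over 157 V segments, Pearson's r of log2(TPM + 1) between these 2 glands was 0.97, whereas it was 0.17 to 0.70 over the 102 pairs of libraries from different mice. The 2 pairs of repeat libraries from 1 mouse each gave 0.68 and 0.91, so 1 of them fell within the range of different mice. Each repeat pair also spans the 2 sequencing batches, whereas the 2 glands share a batch. Over all genes, the Spearman correlation was 0.979 for the 2 glands, 0.965 and 0.971 for the repeat libraries, and at most 0.944 between different mice. Among genes with a mean of at least 100 TPM, the SD of the log2 ratio was 0.30 between the 2 glands and 0.53 and 0.64 between repeat libraries. These are correlations across genes and segments, which are not independent of each other, and no p is given. The 2 glands thus differed by less than repeat libraries of 1 mouse did. Counts and calls are therefore given with 4 control glands, as labelled, and with these 2 averaged and counted as 1 sample of 3. If they came from 1 animal, the p-values with 4 glands are too small.

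**Figure D1:**
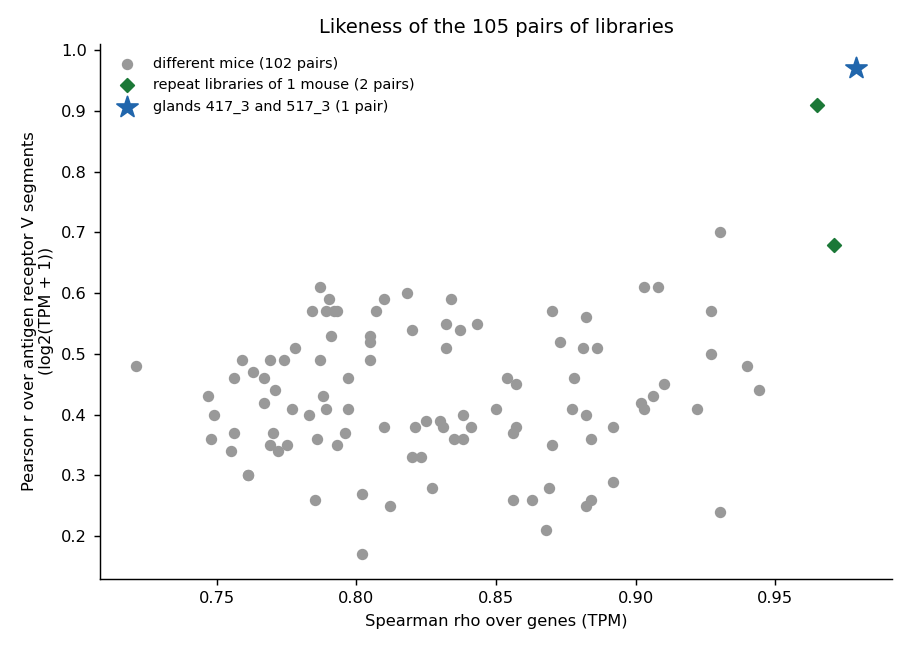
Each point is a pair of libraries among the 15; the x axis is the Spearman correlation over genes and the y axis Pearson's r over antigen receptor V segments. Control glands 417_3 and 517_3 (star, 0.979 and 0.97) lie beyond both pairs of repeat libraries (diamonds) and apart from the 102 pairs of different mice (grey).

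Of 15479 genes tested with 4 glands, 542 (3.50%) passed an adjusted p of 0.05, 245 higher (1.58%) and 297 lower (1.92%) in the carcinomas. Changes of at least 5-fold made up 123 of the higher and 152 of the lower genes. With glands 417_3 and 517_3 as 1 sample, 82 of 15093 genes passed (0.543%), 41 in each direction (0.272% each). Of these, 81 were also among the 542. Below, a gene is called when it passed with 4 glands, and called in both fits when it also passed with the 2 glands averaged. All 542 called genes had non-overlapping groups, but so did many others: all 3 carcinomas lay above all 4 glands in 10.7% of genes tested and below them in 10.7%. Counts of list members without overlap are to be read against these shares, and counts of called members against those of called genes. The median log2 difference of all genes was 0.02. An unadjusted p under 0.05 was found for 21.5% of all genes, 10.2% higher and 11.3% lower, and counts of list members at that limit are to be read against these shares. For any single gene, an exact permutation test of 3 against 4 samples has 35 arrangements and cannot go below p = 0.0571, so calls rest on the spread shared across genes in limma. The repeat libraries of carcinoma 3956 and gland 133, set against each other in their own sequencing batch, kept the sign for 241 of 245 higher and 295 of 297 lower genes, although the first libraries of these mice had helped to choose the genes. Protein-coding genes made up 87.5% of genes tested, 94.7% of the higher and 86.2% of the lower calls. Immunoglobulin segments made up 20 of the lower calls and 0 of the higher ones, among 124 tested. Calls were counted by gene type with 4 glands only, where glands 417_3 and 517_3, nearly the same in V segments, count as 2 samples.

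The 12 named genes of smallest p among those higher in the carcinomas were called in both fits. Il24, an IL-10 family cytokine at chr1:130882074-130887454 (GRCm38, minus strand), measured 36.9, 32.5 and 34.1 TPM in carcinomas 89, 273_5 and 3956. It measured 0, 0.04, 0.24 and 0.64 TPM in glands 133, 392, 417_3 and 517_3. The carcinomas were tightly grouped far above all glands, with a log2 difference of 4.88 (SE 0.30, limma adjusted p = 0.003; 0.0116 with the 2 glands averaged). Spp1 encodes osteopontin, a secreted phosphoprotein of matrix and macrophages, and lies at chr5:104435118-104441050 on the plus strand. It measured 3130, 2170 and 2708 TPM in the carcinomas and 94.9, 15.6, 34.5 and 45.3 TPM in the glands. The lowest carcinoma was still far above the highest gland, and the log2 difference was 6.04 (SE 0.54, adjusted p = 0.0074; 0.033 averaged). Timp1, an inhibitor of matrix metalloproteinases, measured 233, 400 and 439 TPM against 7.18, 17.1, 17.4 and 22.3 TPM, a log2 difference of 4.44 (SE 0.41).

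Ccr1, a chemokine receptor of myeloid cells, measured 26.3, 26.3 and 51.7 TPM in the carcinomas and 1.42 to 1.82 TPM in the glands. Arg1, the arginine-degrading enzyme of alternatively activated macrophages, measured 334, 274 and 265 TPM against 18.4 to 48.1 TPM. Their log2 differences were 3.72 (SE 0.33) and 3.38 (SE 0.34). Neither gene overlapped between the groups, which the choice of genes required, and the 3 carcinomas varied less than 2-fold in each. Gzme, a granzyme gene, was at 0.03 to 0.24 TPM in the glands and at 94.3, 14.6 and 47.8 TPM in the carcinomas, so its level in tumors spread widely while its absence from glands was shared. Structural genes of the matrix were in the same set: Col8a1, a short-chain collagen, with a log2 difference of 3.14 (SE 0.32), and Emilin1, an elastic fibre glycoprotein, with 2.51 (SE 0.28). Ms4a6d and Msr1, both expressed by macrophages, differed by 3.63 (SE 0.38) and 3.90 (SE 0.44), and the glycolytic gene Pgk1 by 2.06 (SE 0.21). Hist1h2ah encodes a replication-dependent H2A histone and measured 273, 200 and 60.9 TPM against 0 to 3.16 TPM, a log2 difference of 6.22 (SE 0.63). Its copies within the histone clusters are near-identical, so reads may have been shared among them. Between carcinoma 3956 and gland 133, its log2 difference was 3.90 in the first libraries and only 1.24 in the repeat libraries. Adjusted p-values of these 12 genes ran from 0.003 to 0.00987 with 4 glands.

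The 11 genes described here were among those of smallest p lower in the carcinomas, and each was called in both fits. Calca, the calcitonin gene, is expressed in the hormone-responsive mammary epithelium and lies at chr7:114631478-114636357 on the minus strand. It measured 138, 146, 441 and 532 TPM in glands 133, 392, 417_3 and 517_3. In the carcinomas it measured 0.68, 0.57 and 0 TPM, at or near zero in each tumor. The log2 difference was -7.58 (SE 0.55, limma adjusted p = 0.00337; 0.0116 with the 2 glands averaged). Oxtr, the oxytocin receptor of myoepithelial cells, was uniform in the glands at 22.7, 26.1, 25.1 and 25.9 TPM and stood at 0.92, 1.73 and 0.15 TPM in the carcinomas. This difference of -3.83 (SE 0.35) was found although the 4 glands differed strongly in other basal genes. Ptn, the heparin-binding growth factor pleiotrophin, measured 22.1, 21.3 and 8.59 TPM in the carcinomas against 224 to 323 TPM in the glands, a difference of -4.01 (SE 0.35).

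Cd300lg, a glycoprotein of capillary endothelium, measured 8.52, 2.11 and 4.53 TPM in the carcinomas and 80.5 to 96.5 TPM in the glands. Rbp7, a retinol-binding protein of fat and endothelium, measured 8.78, 4.27 and 2.95 TPM against 63.2 to 146 TPM. Both fell in all 3 tumors, by -4.01 (SE 0.38) and -4.06 (SE 0.41) on the log2 scale. Chst1, a carbohydrate sulfotransferase, differed by -3.04 (SE 0.29). Agtr1a, an angiotensin II receptor, differed by -3.73 (SE 0.41), and Egflam, which encodes the matrix protein pikachurin, by -2.49 (SE 0.27). Depp1, a target of FoxO factors, differed by -3.12 (SE 0.28), Dkkl1 by -3.87 (SE 0.39) and Abcc8, the sulfonylurea receptor, by -2.54 (SE 0.27). Levels of Abcc8 were low in glands as well, at 4.93 to 6.58 TPM, and were 0.02 to 0.28 TPM in the carcinomas.

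**Figure D2:**
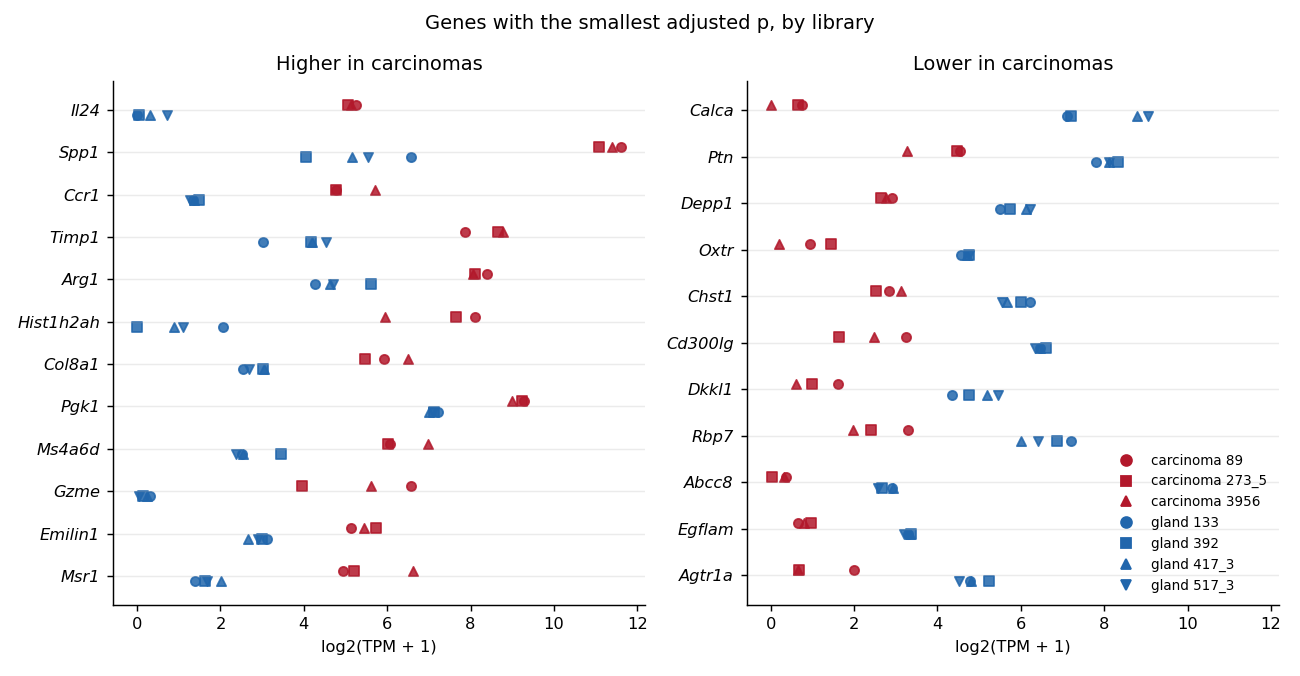
Level of each gene as log2(TPM + 1) in the 3 carcinomas (red) and 4 control glands (blue), 1 point per library, for the 12 higher and 11 lower genes of smallest adjusted p. The genes were chosen among those whose groups do not overlap, so the gap between red and blue is no separate result. Points of Il24 and Oxtr are tightly grouped in 1 or both groups.

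Genes of macrophages were the most often called of the immune lists. Macrophages clear debris and remodel matrix in involuting glands and tumors. Of 20 macrophage genes tested, 10 were called higher and 0 lower, 6 in both fits, against 1.58% and 0.272% of all genes called higher. Their median log2 difference was 2.15, and 14 of 20 had all carcinomas above all glands, against 10.7% of all genes. Beside Spp1, Msr1, Ccr1, Ms4a6d and Arg1, the called genes were Trem2, Npl, Cd68 and the complement genes C1qb and C1qc. Trem2, a lipid receptor of macrophages, measured 21.8, 43 and 53.6 TPM against 4.53, 8.9, 1.16 and 0.7 TPM, a difference of 3.33 (SE 0.66, adjusted p = 0.0371; 0.0838 with the 2 glands averaged). Npl, a sialic acid lyase, differed by 3.32 (SE 0.42) and was called in both fits. Among the members that were not called, Lyve1 differed by 0.04 (SE 0.41), Cd163 by -0.27 (SE 0.81) and Cd209f by -0.92 (SE 1.45). The summed level of the list was 5230 to 10769 TPM in the carcinomas and 665 to 1743 TPM in the glands. Spp1 alone gave 3130, 2170 and 2708 TPM of it in carcinomas 89, 273_5 and 3956, and 15.6 to 94.9 TPM in the glands.

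Neutrophils are short-lived phagocytes that carry the calcium-binding proteins S100a8 and S100a9. Of 9 neutrophil genes tested among 12 listed, 4 were called higher and 0 lower, against 1.58% and 1.92% of all genes. In both fits, 0 of them were called. S100a8 measured 1072, 351 and 40.5 TPM in carcinomas 89, 273_5 and 3956 and 1.99 to 4.82 TPM in the glands, a difference of 5.78 (SE 0.96, limma adjusted p = 0.0239; 0.0619 averaged). S100a9 followed the same order, with 847, 158 and 32.7 TPM and a difference of 5.18 (SE 0.93). Stressed keratinocytes also express these S100 genes, and carcinoma 89 was highest for them and for keratinization genes. The receptors Csf3r, which binds the growth factor G-CSF, and Trem1 differed by 3.04 (SE 0.62; adjusted p = 0.0978 averaged) and 2.91 (SE 0.48; 0.0611 averaged). Ly6g, which defines mouse neutrophils, was at 0.98 to 2.97 TPM in the carcinomas and at 0 to 0.23 TPM in the glands, too low to be tested.

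No lymphocyte or chemokine gene was called higher. Of 15 lymphocyte genes tested, 0 were called higher and 1 lower, against 1.58% and 1.92% of all genes. The called gene was the B cell receptor component Cd79a, at 0.44, 0.53 and 0.45 TPM against 3.93, 24.9, 8.6 and 9.45 TPM. Its difference was -2.85 (SE 0.53, adjusted p = 0.0299; 0.0745 with the 2 glands averaged). At an unadjusted p of 0.05, 10 of the 15 were lower, against 11.3% of all genes, and the B cell genes Cd79a and Ms4a1 were both below 1 TPM in each carcinoma. Of 20 chemokines, limma called 0, and 2 were higher and 4 lower at an unadjusted p of 0.05. The homing chemokine Ccl19 measured 0.93, 0 and 0.32 TPM against 1.86 to 35.1 TPM, with a difference of -3.34 (SE 0.81, adjusted p = 0.0652), and the T cell attractant Ccl5 differed by -1.68 (SE 0.49, adjusted p = 0.0988). Of 16 interferon-stimulated genes, limma called 0, although 16 of 16 differences were positive, with a median of 1.74. At an unadjusted p of 0.05, 8 were higher, against 10.2% of all genes. All carcinomas were above all glands in 4, Oas1a and Usp18 included, against 10.7% of all genes. The summed level was 1759, 1831 and 335 TPM in carcinomas 89, 273_5 and 3956. Carcinoma 3956 thus lay within the glands' 294 to 525 TPM. Oas1a, an antiviral enzyme, measured 56.9, 55 and 22.1 TPM against 3.68 to 15.8 TPM (adjusted p = 0.0555), and Usp18 36, 63.1 and 13.9 TPM against 3.63 to 11.1 TPM (adjusted p = 0.0652). Carcinomas 89 and 273_5 were higher than 3956 in both genes.

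Differences of cell division genes were positive throughout, and some passed the test. Mitosis is driven by cyclin B with Cdk1 and ended by the anaphase-promoting complex, whose ubiquitin-conjugating enzyme is Ube2c. Of 24 mitosis genes, 24 had a positive difference, with a median of 1.98. Of them, 7 were called higher and 0 lower, against 1.58% and 1.92% of all genes. All carcinomas were above all glands in 20, against 10.7% of all genes. Cdk1, the mitotic kinase, measured 129, 157 and 92.4 TPM in carcinomas 89, 273_5 and 3956 and 10, 4.93, 28.9 and 29.9 TPM in glands 133, 392, 417_3 and 517_3. The difference was 2.99 (SE 0.60, limma adjusted p = 0.0391; 0.0589 averaged). Ccnb1, which encodes cyclin B1, measured 33.9, 46.5 and 20.1 TPM against 1.28 to 9.72 TPM, with a difference of 2.63 (SE 0.57, adjusted p = 0.0495; 0.0725 averaged). Ube2c measured 128, 99 and 79.8 TPM against 12 to 21.8 TPM, a difference of 2.58 (SE 0.31), and with the survivin gene Birc5 (2.55, SE 0.38) it was called in both fits. Plk1, Cenpa and Aurka completed the called set, with adjusted p-values of 0.0589, 0.0527 and 0.0745 when the 2 glands were averaged. Mki67, the common proliferation marker, differed by 1.43 (SE 0.70) and was not called. Carcinoma 3956 at 10.2 TPM lay below gland 417_3 at 19.4 TPM. Glands 417_3 and 517_3 were above glands 133 and 392 in most of these genes.

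Promoters of mitotic genes often hold CCAAT boxes and a cell cycle element that reads TTTGAA. Among the 19 RefSeq promoters (GRCm38.p6, 250 bases before the start) found for the 24 genes, CCAAT on either strand was present in 17 (89.5%) and TTTGAA on either strand in 7 (36.8%). In all 32851 promoters of this length the shares were 33.8% and 16.0%. The promoter of Cdk1 is shown because this gene had the largest difference of the list. Its 224 bases before both annotated starts, chr10:69352939-69353162 (minus strand), hold 3 matches of CCAAT, read here as ATTGG from the other strand, and 1 of TTTGAA, all in capitals. A further TTTGAA lies in the 26 bases that follow. These matches are letters in a window and were not measured as binding.
Cdk1: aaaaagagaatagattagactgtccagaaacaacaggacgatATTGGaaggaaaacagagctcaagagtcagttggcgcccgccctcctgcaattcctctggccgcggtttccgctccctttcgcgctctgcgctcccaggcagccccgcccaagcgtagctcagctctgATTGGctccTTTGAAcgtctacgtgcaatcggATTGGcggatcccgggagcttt

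Genes of DNA replication had smaller differences than those of mitosis. All 22 tested had a positive difference with a median of 0.76, yet limma called 0. All carcinomas were above all glands in 4 of the 22, Cdc45 and Tk1 included, against 10.7% of all genes. The helicase gene Mcm6, for example, measured 49.1, 47.4 and 44.1 TPM in carcinomas 89, 273_5 and 3956. It measured 10.8 and 10.5 TPM in glands 133 and 392, but 88.8 and 79.6 TPM in glands 417_3 and 517_3. Of the 22, 5 had an unadjusted p under 0.05, all higher, against 10.2% of all genes. Cdc45, a part of the replicative helicase, measured 12.9, 16.9 and 11.8 TPM against 2.16 to 6.49 TPM (difference 1.51, SE 0.39, adjusted p = 0.0775). Tk1, thymidine kinase, differed by 1.72 (SE 0.44, adjusted p = 0.0746). Among 18 cyclins and cell cycle inhibitors, 2 were called higher and 0 lower, against 1.58% and 1.92% of all genes. Cdkn2a encodes the tumor suppressors p16Ink4a and Arf, and a level summed over the gene does not tell them apart. It measured 138, 154 and 90.2 TPM in the carcinomas and 2.49, 16.5, 3 and 3.41 TPM in glands 133, 392, 417_3 and 517_3. Every carcinoma was above every gland, by 4.45 on the log2 scale (SE 0.57, limma adjusted p = 0.015; 0.0464 averaged). Ccne1, which encodes cyclin E1, differed by 2.03 (SE 0.39, adjusted p = 0.0344; 0.0805 averaged).

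Several glycolytic genes were higher, and the set was not uniform. Glycolysis turns glucose to pyruvate, and lactate leaves the cell through Slc16a3. Of 19 genes tested, 5 were called higher and 1 lower, against 1.58% and 1.92% of all genes, with a median of 0.79. Pgk1, phosphoglycerate kinase on the X chromosome, measured 618, 602 and 505 TPM in the carcinomas and 147, 139, 127 and 135 TPM in the glands, with little spread within either group (adjusted p = 0.00905; 0.033 averaged). Pkm, pyruvate kinase, measured 929, 1275 and 934 TPM against 227, 172, 299 and 279 TPM, a difference of 2.11 (SE 0.28, limma adjusted p = 0.0154; 0.0464 averaged). Of the list, these 2 genes were called in both fits. Slc16a3 measured 112, 23 and 93.3 TPM against 1.13 to 6.48 TPM, a difference of 3.64 (SE 0.66), and Pgam1 and Gapdh differed by 1.97 (SE 0.27) and 1.54 (SE 0.24). With the 2 glands averaged, their limma adjusted p-values were 0.0619, 0.0515 and 0.0617. The called gene of the opposite sign was Pfkfb3, whose enzyme makes the activator of phosphofructokinase, at 24.8, 15 and 8.83 TPM against 72.3 to 114 TPM (-2.48, SE 0.36, adjusted p = 0.0172; 0.0512 averaged). Ldha, which makes lactate, differed by 0.91 (SE 0.29, adjusted p = 0.12).

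Of 16 hypoxia and angiogenic genes, 3 were called higher and 1 lower, against 1.58% and 1.92% of all genes. P4ha1, a collagen prolyl hydroxylase, measured 71.5, 61.5 and 83.6 TPM against 12.3 to 19.9 TPM, a difference of 2.10 (SE 0.27), and was called in both fits (limma adjusted p = 0.0144 and 0.0384). Pgf, placental growth factor, differed by 2.88 (SE 0.53; adjusted p = 0.0553 averaged) and the lysyl hydroxylase Plod2 by 1.74 (SE 0.35; 0.0831 averaged). Epas1, the HIF2 alpha gene of endothelium and fat, was lower by -2.28 (SE 0.40, adjusted p = 0.0258; 0.0725 averaged), at 30.6, 9.3 and 17.9 TPM against 73.7 to 116 TPM. Vegfa, the main vascular growth factor, differed by 0.33 (SE 0.49) and Hif1a by 0.88 (SE 0.51), neither called. In 2 other metabolic lists limma called 0 genes. Fatty acid genes (18 tested, median -0.72, 1 lower at an unadjusted p of 0.05) included the oxidation genes Etfdh at -0.75 (SE 0.31) and Hadha at -0.86 (SE 0.38). Atf4 and serine synthesis genes (17 tested, median 0.29, 1 lower at an unadjusted p of 0.05) included the glutamine transporter Slc1a5 at -2.73 (SE 0.76, adjusted p = 0.0897) and Phgdh, the first enzyme of serine synthesis, at -0.86 (SE 0.46).

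Several receptors and targets of the hormone-sensing lineage fell. Of 16 such genes tested among 18 listed, 5 were called lower and 1 higher, against 1.92% of all genes called lower, with a median of -2.03. Esr1, the estrogen receptor alpha gene, measured 1.83, 0.71 and 0.84 TPM in carcinomas 89, 273_5 and 3956 and 9.63, 9.68, 11.6 and 8.02 TPM in glands 133, 392, 417_3 and 517_3. Each carcinoma was far below each gland, by -2.36 (SE 0.31, limma adjusted p = 0.0151; 0.0464 averaged). Pgr, the progesterone receptor gene, measured 0.42, 0.12 and 0.05 TPM against 2.71 to 12.3 TPM (-2.36, SE 0.47, adjusted p = 0.0384; 0.0733 averaged). Foxa1, a pioneer factor for the estrogen receptor, measured 0.87, 4.71 and 1.28 TPM against 12.7 to 44.3 TPM (-3.19, SE 0.55, adjusted p = 0.0254; 0.0677 averaged). Cited1, a co-regulator of the estrogen receptor, measured 3.94, 4.95 and 1.86 TPM against 47.9 to 233 TPM, a difference of -4.96 (SE 0.56), and was called in both fits together with Calca and Esr1. The called gene of the opposite sign was Pthlh, parathyroid hormone-related protein, which a lactating breast and many carcinomas secrete. It measured 57.6, 24.6 and 45.8 TPM against 0.74, 0.99, 3.26 and 2.99 TPM, a difference of 3.90 (SE 0.47, adjusted p = 0.0116; 0.033 averaged). Areg, the EGF receptor ligand amphiregulin and an estrogen target, also had all carcinomas above all glands, at 104, 30.1 and 116 TPM against 14.3 to 23.2 TPM (1.92, SE 0.48, adjusted p = 0.0726). In all, 5 of the 16 differences were positive. Erbb2, the HER2 receptor gene, did not pass the test (0.15, SE 0.43).

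Basal and myoepithelial genes fell in part. These cells hold keratins 5 and 14 and a smooth muscle apparatus that ejects milk. Of 14 genes, 4 were called lower and 0 higher, against 1.92% and 1.58% of all genes. In both fits 1 was called (Oxtr), and the median difference was -2.39. Myh11, smooth muscle myosin, measured 3.79, 0.42 and 0.38 TPM in the carcinomas. In glands 133 and 392 it measured 17.8 and 21.4 TPM and in glands 417_3 and 517_3 340 and 235 TPM, so the glands fell into 2 levels, both above the carcinomas (-5.18, SE 1.12, limma adjusted p = 0.0487; 0.0978 averaged). Mylk, myosin light chain kinase, and Synm, an intermediate filament protein, differed by -3.55 (SE 0.74; adjusted p = 0.0911 averaged) and -2.92 (SE 0.52; 0.0679 averaged). The keratins of this layer were uneven among the carcinomas. Krt5 measured 961 TPM in carcinoma 89, above all glands at 40.8 to 409 TPM. Carcinomas 273_5 and 3956 were below all glands, at 0.7 and 0.88 TPM, and the gene was not called (-3.34, SE 2.15). Krt14 (1153, 58.8 and 34.2 TPM in 89, 273_5 and 3956) and Krt17 (1203, 25.9 and 9.85 TPM) were also highest in 89. Neither was called, against 34.2 to 1064 TPM and 8.49 to 660 TPM in the glands.

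Luminal and junctional genes held 1 call. Of 25 tested, 1 was called higher and 0 lower, against 1.58% and 1.92% of all genes, and the median was 0.17. At an unadjusted p of 0.05, 1 was higher and 1 lower, against 10.2% and 11.3% of all genes. Krt7, a keratin of simple ductal epithelium, measured 294, 285 and 874 TPM against 17, 41.1, 61.6 and 59 TPM (3.35, SE 0.56, limma adjusted p = 0.0239; 0.0548 averaged). Cdh1, the E-cadherin gene, measured 124, 84.8 and 103 TPM in the carcinomas and 39.1, 36.9, 196 and 152 TPM in the glands, so the carcinomas fell between the 2 levels of the glands (0.33, SE 0.63, adjusted p = 0.819). Of 14 milk genes limma called 0, and 2 were lower at an unadjusted p of 0.05, with a median of -1.33. Muc15 measured 69.5, 1.98 and 1.19 TPM against 32.5 to 299 TPM, and the milk fat globule gene Btn1a1 23.4, 14.7 and 5.45 TPM against 22.1 to 156 TPM. Of 11 keratinization genes tested among 18 listed, limma called 0, and 1 was higher at an unadjusted p of 0.05. Krt6a, a keratin of wounded and squamous epithelium, measured 707, 127 and 0.39 TPM in carcinomas 89, 273_5 and 3956 and 0.29 to 1.36 TPM in the glands, and Sprr1a, a cornified envelope protein, 219, 11 and 4.61 TPM against 1.02 to 5.04 TPM.

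**Figure D3:**
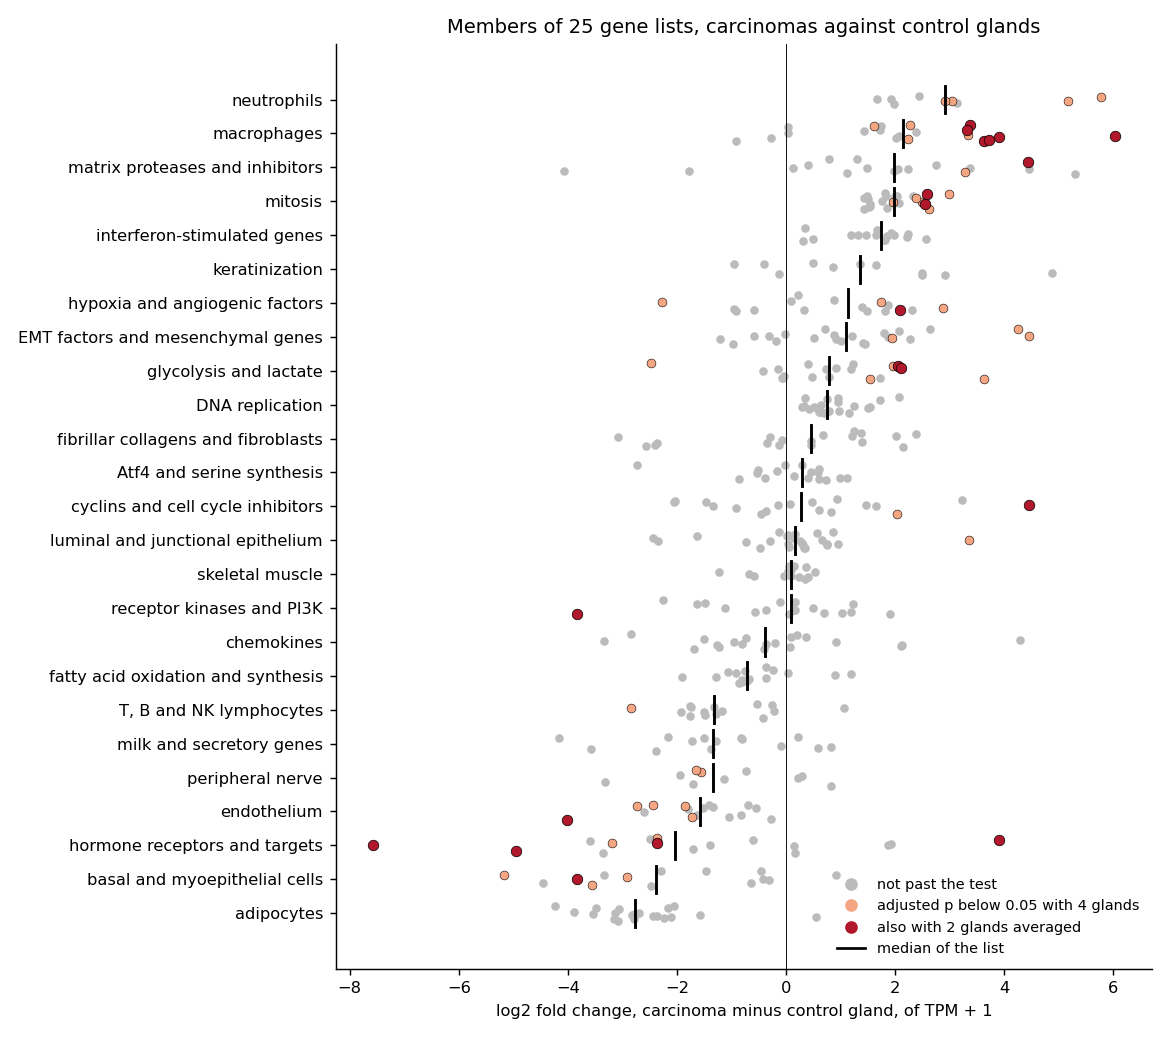
Each point is a tested member of a gene list at its log2 difference, carcinoma minus control gland, of TPM + 1; grey did not pass the test, orange passed with 4 glands and red passed also with 2 glands averaged, and the black bar is the list median. Mitosis genes all lie above 0 (median 1.98), macrophage genes hold 10 calls, and hormone and endothelial genes hold 5 lower calls each.

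Of 22 EMT factors and mesenchymal genes, 3 were called higher and 0 lower, against 1.58% and 1.92% of all genes. In both fits 0 were called, and the median difference was 1.11. Fn1, fibronectin, measured 248, 224 and 1885 TPM in carcinomas 89, 273_5 and 3956 and 17.1, 26.3, 26.1 and 27 TPM in the glands. All carcinomas were above all glands, with 3956 far above the other tumors (4.26, SE 0.70, limma adjusted p = 0.0239; 0.0611 averaged). Tnc, the matrix protein tenascin C, differed by 4.45 (SE 0.76, adjusted p = 0.0252; 0.0553 averaged), and Tgfbi, a collagen-binding protein induced by TGF-beta, by 1.95 (SE 0.40, adjusted p = 0.0407; 0.0955 averaged). The factors that repress epithelial genes were not called: Snai1 differed by 1.79 (SE 0.43, adjusted p = 0.0629), Twist1 by 1.41 (SE 0.74), Zeb1 by -0.58 (SE 0.42) and Snai2 by -0.98 (SE 0.75). Of 17 matrix proteases and inhibitors, Timp1 and Mmp12 were called higher and 0 lower, against 1.58% and 1.92% of all genes, with a median of 1.98. Mmp12, the elastase of macrophages, measured 105, 43.4 and 230 TPM against 3.52 to 17.3 TPM (3.29, SE 0.66, adjusted p = 0.0388; 0.0709 averaged). Of 18 fibroblast and collagen genes limma called 0, and 4 were higher and 2 lower at an unadjusted p of 0.05. Dcn, the small proteoglycan decorin, differed by -2.41 (SE 0.63, adjusted p = 0.0808) and Col5a2 by 2.14 (SE 0.66, adjusted p = 0.113).

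Part of the endothelial genes fell. Of 16 tested, 16 had a negative difference, with a median of -1.58. Of them, 5 were called lower and 0 higher, against 1.92% and 1.58% of all genes, and 1 was called in both fits (Cd300lg). All carcinomas were below all glands in 11, against 10.7% of all genes. Sox17, an arterial transcription factor, measured 5.21, 0.98 and 5.36 TPM against 19.8 to 39.3 TPM (-2.73, SE 0.50, limma adjusted p = 0.0293; 0.0795 averaged). Vwf, von Willebrand factor, measured 11, 6.27 and 12.9 TPM against 32.4 to 74.7 TPM (-2.43, SE 0.38, adjusted p = 0.0215; 0.0602 averaged). The angiopoietin receptor Tek and the VEGF receptor Kdr were the other calls, at -1.85 (SE 0.38) and -1.72 (SE 0.36), both with an adjusted p of 0.0955 when the 2 glands were averaged. The summed level of the list was 147 to 450 TPM in the carcinomas and 807 to 1078 TPM in the glands, with carcinoma 273_5 lowest. Of 10 peripheral nerve genes tested among 11 listed, 2 were called lower and 0 higher, against 1.92% and 1.58% of all genes. In both fits, 0 of them were called. The myelin gene Pmp22 measured 26.8, 25.2 and 18.1 TPM against 64 to 89 TPM (-1.65, SE 0.25, limma adjusted p = 0.0195; 0.0589 averaged).

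Adipocyte genes differed widely among the glands themselves. The summed level of 20 adipocyte genes ran from 2211 to 49164 TPM in the glands and from 228 to 2487 TPM in the carcinomas, and none of the 20 was at 0 in the carcinomas. Fabp4, a fatty acid carrier of adipocytes, measured 799, 487 and 68.5 TPM in the carcinomas, 15809 and 21653 TPM in glands 133 and 392, and 1644 and 1830 TPM in glands 417_3 and 517_3. Pparg, the master regulator of adipocytes, followed the same steps, with 15, 4.89 and 2.72 TPM, 120 and 98 TPM, and 23.2 and 20.4 TPM. Limma called 0 of the 20, 7 were lower at an unadjusted p of 0.05, and the median difference was -2.77. Skeletal muscle genes differed among glands too, with sums of 34.5 to 3528 TPM, highest in gland 392, and 42.9 to 483 TPM in the carcinomas. Limma called 0 of 14, with 0 at an unadjusted p of 0.05. Des and Mb differed by -0.58 (SE 0.60) and -1.22 (SE 0.72). With the mean log2 level of the adipocyte genes as a covariate, 616 genes were called, 207 higher and 409 lower, and 47 of the 57 called genes named by rule kept their call. Beyond that fit, the part of fat and muscle in the differences was not tested.

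**Figure D4:**
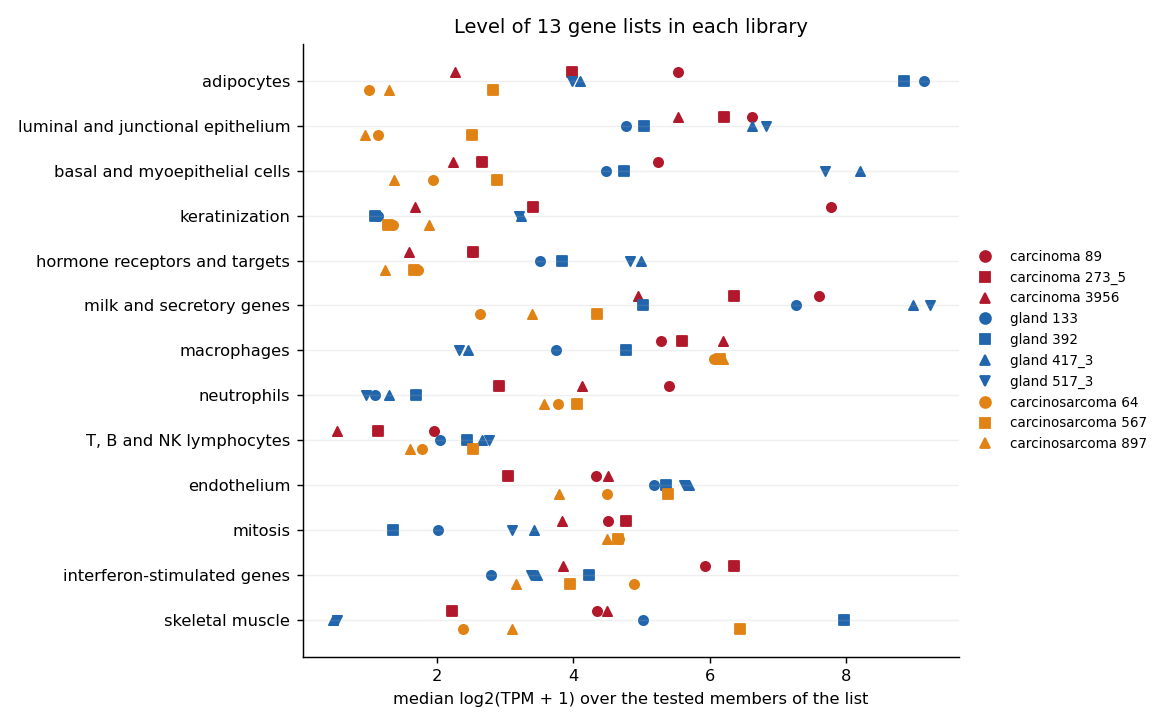
Median log2(TPM + 1) over the tested members of 13 gene lists in each library of the carcinomas (red), control glands (blue) and metaplastic carcinosarcomas (orange). Adipocyte genes split the glands into a high pair, 133 and 392 (9.14 and 8.85), and a low pair, 417_3 and 517_3 (4.10 and 3.99), and keratinization genes are highest in carcinoma 89 (7.78).

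Of the 20 genes that the study itself singled out, 2 were called higher (Cdkn2a and Fn1) and 2 lower (Esr1 and Pgr). Over all genes, 1.58% were called higher and 1.92% lower. The study's list was chosen on these samples and gives no independent evidence. The cytokine gene Mif measured 1384, 1210 and 1239 TPM against 186, 255, 555 and 665 TPM (1.81, SE 0.46, limma adjusted p = 0.0761). Akt1 measured 136, 123 and 267 TPM against 54.6 to 120 TPM (1.03, SE 0.40, adjusted p = 0.189). In both genes the groups did not overlap, and neither passed the test. Lgals1, which encodes galectin 1, overlapped, with 743, 1076 and 4357 TPM in the carcinomas, 1154 and 1489 TPM in glands 133 and 392, and 114 and 149 TPM in glands 417_3 and 517_3. Vim, vimentin, overlapped as well (-0.01, SE 0.45), as did Trp53, the p53 gene (0.34, SE 0.54), Mtor (-0.11, SE 0.37) and Pik3ca (0.16, SE 0.30). Met, the hepatocyte growth factor receptor, measured 28.5, 1292 and 30.9 TPM in carcinomas 89, 273_5 and 3956 and 20.9 to 42.4 TPM in the glands. Among the carcinomas only 273_5 was high, and the group difference of 1.91 (SE 1.22) was not called. High Met was not particular to this tumor: metaplastic carcinosarcomas 567, 64 and 897 measured 777, 227 and 792 TPM. The study reported higher Met over Trim24COE tumors of both classes. Sncg, a synuclein also expressed by adipocytes, measured 73.4, 37.6 and 3.48 TPM against 89.2 to 1340 TPM (-3.93, adjusted p = 0.134). Aldh1a1, an enzyme of retinoic acid synthesis, differed by -2.93 (SE 0.90, adjusted p = 0.114), the vesicle protein Syt9 by -2.07 (SE 0.55, adjusted p = 0.0826), the kinase Ltk by -1.36 (SE 0.43, adjusted p = 0.123) and the checkpoint ligand Vtcn1 by -1.76 (SE 0.74, adjusted p = 0.218). Among 18 receptor kinases and PI3K genes, 1 was called lower and 0 higher, against 1.92% and 1.58% of all genes. The called gene was Fgfr2, an FGF receptor of ductal epithelium. It measured 2.4, 1.72 and 1.56 TPM in the carcinomas and 19.1, 35.6, 68.9 and 55.1 TPM in the glands, lower by -3.84 (SE 0.45, adjusted p = 0.0101; 0.0348 averaged).

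The carcinomas were also tested directly against the 3 metaplastic carcinosarcomas of Trim24COE mice (64, 567 and 897), without the control glands. For these 3 tumors and for carcinomas 89 and 273_5, the study's pathology list also gives a class call based on RNA-seq. The classes may therefore not be independent of the RNA tested here. Of 14193 genes, 99 (0.698%) passed, 83 higher and 16 lower in the carcinomas. Limma called 0 genes without carcinoma 89 (1495 at an unadjusted p of 0.05) and 0 without carcinosarcoma 64 (1143 at an unadjusted p of 0.05). Luminal and junctional genes made up many of the calls: 12 of 25 were higher in the carcinomas and 0 lower, with a median of 4.17. Krt7 measured 7.99, 9.59 and 0.95 TPM in carcinosarcomas 567, 64 and 897, which is below all carcinomas and all glands (6.20, SE 0.74, limma adjusted p = 0.0201). Spint1, an inhibitor of membrane serine proteases, measured 32.5, 30.2 and 36.2 TPM in the carcinomas and 0.17 to 1.12 TPM in the carcinosarcomas (4.36, SE 0.31, adjusted p = 0.00734). Cdcp1, a transmembrane substrate of Src kinases, measured 43.7, 33.9 and 33 TPM against 0.37 to 1 TPM (4.47, SE 0.29). In both genes the carcinomas lay within the range of the glands.

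Il23a, the p19 subunit of interleukin 23, measured 23.2, 39.6 and 43.6 TPM in the carcinomas and 0.45 to 0.65 TPM in the carcinosarcomas (4.53, SE 0.32, limma adjusted p = 0.00734). Glands 133 and 392 were at 1.67 and 1.2 TPM and glands 417_3 and 517_3 at 32.4 and 29.3 TPM. Ankrd22 measured 14.6, 16.9 and 17.5 TPM against 0.1 to 0.37 TPM (3.80, SE 0.26), and Krtcap3 58.4 to 81.6 TPM against 2.72 to 4.57 TPM (3.86, SE 0.28). Ankrd22 was also higher than in the glands, where it was at 0.51 to 2.08 TPM, and was called there in both fits. The carcinosarcomas were higher in Cdkn2a, at 887, 780 and 1074 TPM in tumors 567, 64 and 897 (-2.86, SE 0.28, adjusted p = 0.013), so this gene was low in glands, intermediate in carcinomas and highest in carcinosarcomas. The other 4 lower genes of smallest p were the U3 small nucleolar RNA genes Rnu3b1, Rnu3b2, Rnu3b3 and Rnu3b4. Their values were the same in every library and cannot be told apart between near-identical copies that share reads. They were listed at 0 in all carcinomas and glands.

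**Figure D5:**
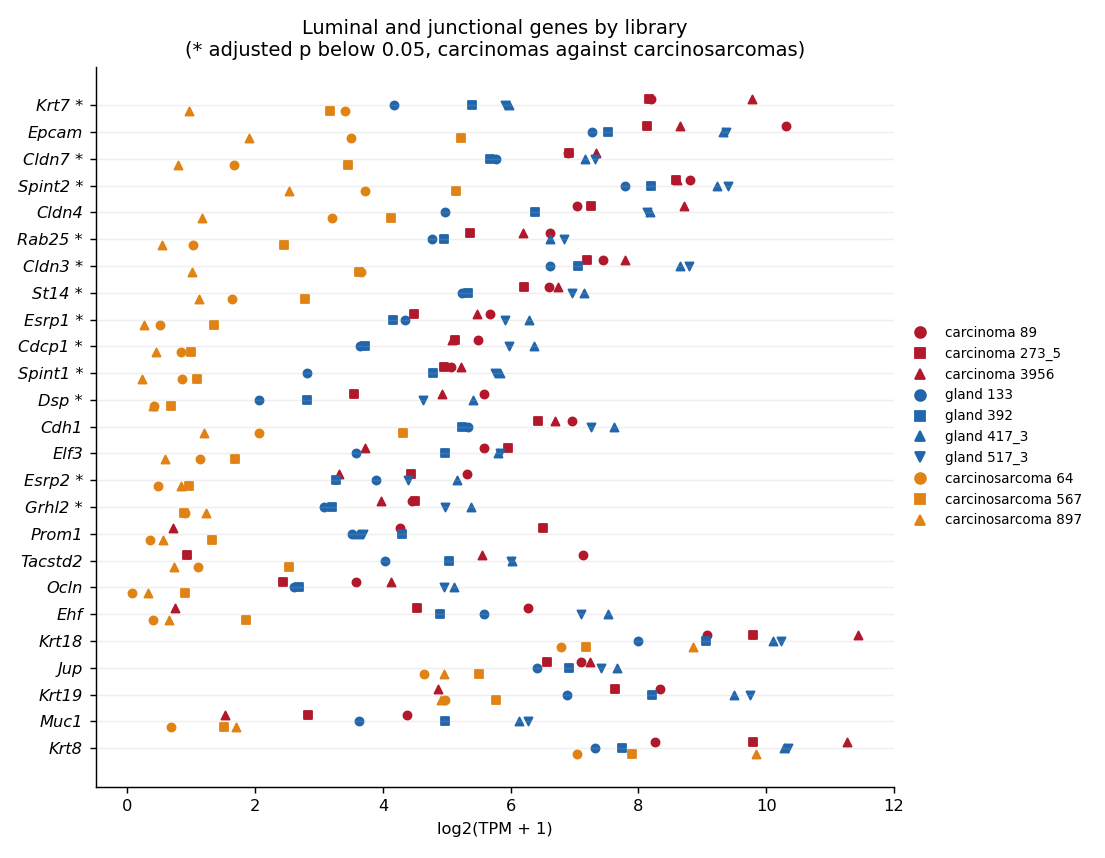
Level as log2(TPM + 1) of 25 luminal and junctional genes in each library of the carcinomas (red), control glands (blue) and metaplastic carcinosarcomas (orange), ordered by the difference between the tumor classes. For the 12 starred genes the carcinosarcomas lie below all carcinomas, while carcinomas and glands mostly overlap.

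The 3 carcinomas differed among themselves more than the carcinosarcomas did, with Spearman correlations of 0.857 to 0.903 over genes against 0.922 to 0.944. The genes named in this paragraph were chosen after their values were seen. Carcinoma 89 held 45 genes at least 10-fold above both other carcinomas, among them Krt14 (1153, 58.8 and 34.2 TPM in 89, 273_5 and 3956), Krtdap, a differentiation protein of keratinocytes (878, 0.59 and 2.2 TPM), and the prolactin family gene Prl2c3 (1781, 80.5 and 29.2 TPM), whose reads near-identical family members may share. Carcinoma 273_5 held 32 such genes, of which 9 lie on chromosome 6, against 2 of 45 and 1 of 26 in the other two carcinomas. The 4 of highest level, Capza2 (116, 10331 and 174 TPM), Lsm8 (79.1, 4428 and 71.2 TPM), Tes (71.3, 4042 and 149 TPM) and Cav2 (51.6, 2816 and 62.4 TPM), all lie on chromosome 6 near Met, between positions 17065149 and 18855751 (GRCm38). The imprinted H19 RNA, on chromosome 7, measured 51.8, 1313 and 10.9 TPM. Carcinoma 3956 held 26, among them the protease Plau (91, 28.6 and 1442 TPM) and the oncofetal chromatin factor Hmga2 (1.29, 23.2 and 267 TPM). Of these 45, 32 and 26 genes, 2, 0 and 1 were among the 542 called.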

How the data were processed

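Whole-tissue RNA-seq of mouse mammary tumors and glands was used as deposited. The authors aligned reads to GRCm38 and estimated TPM with RSEM (per the study's methods), and the deposited tables hold TPM only. Each library sums to the same TPM total, so these tables give no depth or counting error. Labels and methods name different RNA kits and different library kits. Groups came from the labels. Values were log2(TPM + 1), and genes with at least 1 TPM in 3 or more libraries were tested with limma 3.58.1 (R 4.3.3, variance trend, two-sided, Benjamini-Hochberg, threshold 0.05). Fold changes are therefore of TPM + 1 and understate changes of low genes. The repeat libraries of batch 2 entered no fit; they were set against each other, and in pairs of libraries for likeness. In simulated data of 15050 genes for carcinomas against glands, 68% of genes changed by 3 on the log2 scale and 39% of those changed by 2 were recovered, and 5.31% of calls were false. The simulation treated all glands as independent and left out the likeness of the near-identical control glands. These shares therefore hold for independent glands only, and the share of false calls among the reported genes was not tested. Replicates were separate mice by label.

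Gene symbols and coordinates (GRCm38) were matched through GENCODE M21 for 51633 of 51826 gene IDs. Gene lists (26) were written from general knowledge. The samples compared, the lists and the rules were chosen with earlier results of these data known. Named by rule were all genes that the study singled out; the 12 higher and 12 lower genes of smallest adjusted p (called, at least 2-fold, no overlap, no clone names), of which 1 item is not reported here; per list up to 3 called genes in each direction by size, or the 2 of smallest p; and 5 genes in each direction against carcinosarcomas. Other list members are named with their values in view, outside the rule. Alternatives changed the pseudocount (0.1 or 0.5 TPM), the filter, the scaling, the model and the libraries; the averaging of glands 417_3 and 517_3, and the fit with glands 133 and 392 only, were added after the data had been seen.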

Additional observations from a re-analysis of the deposited data

Results flagged for a closer look

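In 3 called genes, 1 of the 4 control glands stood apart, by the gap to its nearest neighbour over the range of log2(TPM + 1). The ratio was 0.855 for Cdkn2a and 0.852 for Ms4a6d, both high in gland 392, and 0.927 for Fn1, low in gland 133. Chance flags about 1 in 20 groups. The 2 near-identical glands make such gaps easier to reach.

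Carcinomas and carcinosarcomas share the same control glands, so a difference between these classes is also a difference between their contrasts with the glands. This follows by arithmetic and adds no evidence to the direct test above. By limma's direct test the classes differed in Ankrd22 (3.80), Cdcp1 (4.47), Il23a (4.53), Krt7 (6.20), Krtcap3 (3.86) and Spint1 (4.36). All of these were higher in the carcinomas, on the log2 scale. The sign was opposite for Cdkn2a (-2.86) and for Rnu3b1, Rnu3b2, Rnu3b3 and Rnu3b4 (-3.67 each, copies that share reads).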

How the results depend on the processing

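No paired analysis was possible because the labels number mice and the groups share no replicate numbers. The number of called genes (542) depended on the libraries and the filter. With glands 417_3 and 517_3 averaged it was 82 (41 higher, 41 lower; 37 and 41 by at least 5-fold), and with glands 133 and 392 as the only controls 1255 (611 and 644; 201 and 325). Leaving out 1 library gave 72 to 526 called genes, 36 to 188 higher and 30 to 345 lower, 33 to 151 by at least 5-fold higher and 27 to 209 by at least 5-fold lower; the lowest total came without gland 517_3, 87 without 417_3, 100 without carcinoma 3956, 262 without 273_5 (188 higher, 74 lower) and 277 without 89. Without the filter 46 were called (24 and 22; 21 and 22), and with all first libraries of batch 1 in the fit 1239 (549 and 690; 230 at least 5-fold lower). At least 5-fold lower genes numbered 264 with a pseudocount of 0.1 TPM and 246 with the adipocyte covariate. With carcinoma 273_5 alone limma called 2 genes (2 higher, both at least 5-fold, and 0 lower; 2324 at an unadjusted p of 0.05). The causes were not tested. Against carcinosarcomas (99), limma called 0 without the filter (2871 at an unadjusted p of 0.05) and 0 to 293 with 1 tumor left out.

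Of 57 called genes named by rule, 32 kept their call with the 2 glands averaged, as many as without gland 417_3, without 517_3 or without carcinoma 3956; 28 kept it without the filter, 0 of the 55 tested kept it with carcinoma 273_5 alone, and none changed sign in any fit. The 26 list medians kept within 1 SD of their libraries in most fits; 5 changed sign with the adipocyte covariate and 6 with carcinoma 273_5 alone. Genes that changed sign were uncalled where their sign differed and with all 4 glands; of them Cdcp1 (1.55), Cdh1 (1.41) and Mb (-2.37) were called, with the sign of the 4-gland fit, when glands 133 and 392 were the only controls (limma adjusted p = 0.035, 0.0394 and 0.0455). With the adipocyte covariate they were Cdcp1 (-0.77), Cdh1 (-0.61), Erbb2 (-0.27), Mb (0.01), Pik3ca (-0.03), Spint1 (-0.66), Trim24 (-0.01), Trp53 (-0.58) and Vim (0.13). With 273_5 alone they were Erbb2 (-0.51), Phgdh (0.10), Pik3ca (-0.18) and Trim24 (-0.32), and with quantile normalization Trim24 (-0.02). Mtor gave 0.03 with 2 glands averaged and 0.33 with glands 133 and 392 only. With 1 library left out, differences ran across 0 for Cdcp1 (-0.12 to 0.79), Cdh1 (-0.04 to 0.75), Des (-0.96 to 0.08), Erbb2 (-0.09 to 0.48), Mtor (-0.30 to 0.11), Spint1 (-0.37 to 0.63), Trim24 (-0.20 to 0.17) and Vim (-0.48 to 0.44).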
